A study of Mus musculus with 8 samples.

Results

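Gap junctions are channels that let ions and small metabolites pass directly from one cell to the next. They are built from connexins, membrane proteins that assemble into a ring in each of the facing membranes, and the genes fall into the alpha (Gja), beta (Gjb) and gamma (Gjc) groups. Keratinocytes of the epidermis and the hair follicle are joined by several connexins at once, and in humans mutations of GJB2 and GJA1 can cause skin disease, in the case of GJB2 often together with deafness. The connexins described here are the rows of a spotted oligonucleotide array whose RefSeq accession belongs to a mouse gene named Gja, Gjb or Gjc. Of 6593 named genes on the array, 12 were such connexins, and 9 of the 12 are described. Gjb2, Gjb5, Gja1, Gja5 and Gja10, 5 of the 9, had values on at least 5 of 8 arrays.

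The arrays set skin of near naked hairless mutant pups aged 7 days against skin of wild type pups of the same age, both RNAs sharing an array in different dyes. Near naked hairless is known as an allele of the hairless gene Hr, whose product is a corepressor of nuclear receptors. Strain and number of mutant alleles are not stated in the labels. Arrays 2, 4, 6 and 7 had the mutant RNA in Cy5, and arrays 1, 3, 5 and 8 had it in Cy3. The design names 5 biological replicates, taken from 1 litter. Which animal was on which array is not labelled, so some of the 8 arrays share an animal and p-values over arrays are too small.

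Every value below is a log ratio, taken as log2 of mutant over wild type. That base and that direction are likely, but no label gives them. If the sign were opposite, every direction would turn and sizes and tests would hold. A log ratio carries no level of expression, so neither the abundance of a connexin nor the tissue label could be checked from these values. Values were present for between 41.3% and 88.3% of rows, lowest on arrays 3, 2 and 1, and the spread of an array ran from an SD of 0.57 on array 5 to 1.60 on array 2. Array 3 held a value for 0 of the 9 connexins described, and arrays 4 to 7 for 8 each. The hairless gene Hr averaged -0.17 ± 0.64 (SD, n = 6), and whether its probe covers the altered part of the gene is not known here.

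Of the 5, Gjb2 (Cx26) and Gjb5 (Cx31.1) were the connexins with ratios below 0 on every array that measured them. The windows around their transcription starts are shown with that of Gja1 (Cx43), an epidermal connexin whose ratios lay on both sides of 0. Each window is from RefSeq, build GRCm38.p6, and runs 5′ to 3′ on the strand of the gene from 250 bases before the start to 50 after it. The Gjb2 window is chr14:57104653-57104952 and the Gjb5 window chr4:127358115-127358414, both on the minus strand, and the Gja1 window is chr10:56377050-56377349 on the plus strand. Capitals mark matches, on either strand, to the GC box GGGCGG, the TATA box TATAAA, the CCAAT box CCAAT, the AP-1 type letters TGANTCA and the nuclear receptor half-site AGGTCA.
Gjb2: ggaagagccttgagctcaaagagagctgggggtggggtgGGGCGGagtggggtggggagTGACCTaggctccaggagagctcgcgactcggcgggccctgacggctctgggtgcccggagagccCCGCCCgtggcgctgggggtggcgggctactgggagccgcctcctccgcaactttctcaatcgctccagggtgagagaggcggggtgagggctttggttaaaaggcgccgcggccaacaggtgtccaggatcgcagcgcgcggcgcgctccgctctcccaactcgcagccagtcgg
Gjb5: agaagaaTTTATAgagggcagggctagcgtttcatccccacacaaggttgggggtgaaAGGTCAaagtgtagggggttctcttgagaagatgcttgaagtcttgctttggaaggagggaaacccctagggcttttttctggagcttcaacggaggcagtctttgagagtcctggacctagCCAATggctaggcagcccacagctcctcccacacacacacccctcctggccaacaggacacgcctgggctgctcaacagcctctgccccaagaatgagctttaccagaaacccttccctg
Gja1: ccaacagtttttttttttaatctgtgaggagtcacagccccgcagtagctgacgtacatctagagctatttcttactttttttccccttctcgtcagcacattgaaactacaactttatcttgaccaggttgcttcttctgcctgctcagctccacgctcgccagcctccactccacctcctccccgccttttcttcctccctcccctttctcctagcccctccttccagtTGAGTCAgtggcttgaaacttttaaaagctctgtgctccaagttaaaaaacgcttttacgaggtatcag

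The 3 windows differed in composition, with 70.0% G and C in Gjb2, 54.3% in Gjb5 and 47.7% in Gja1, against a median of 52.7% over 32851 promoter windows. Gjb2 held 2 GC boxes, and 35.7% of all windows held at least 1. It had neither a TATA nor a CCAAT match. Gjb5 held 1 TATA match on the opposite strand (13.6% of all windows) and 1 CCAAT match (37.4%). As printed, their leftmost bases lay at -243 and -70 from the start. The half-site AGGTCA, which 16.3% of all windows contain, occurred once in Gjb2, on the opposite strand, and once in Gjb5, on the gene's strand. The leftmost base of the match, as printed, lay at position -191 in Gjb2 and -192 in Gjb5, counted from the start. Because the strands differ, these positions are opposite ends of the half-site. The Gja1 window held 1 AP-1 type match, a feature of 7.8% of all windows, and none of the other 4 motifs. These matches describe letters and not binding. Of the 9 connexins described, 8 had an entry in the table of promoters, and none of the matches overlapped another in these 3 windows.

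Of the 5 connexins described with values on 5 or more arrays, Gjb2 had the lowest mean ratio, in whole skin where fewer cells of a type and less RNA per cell cannot be told apart. Gjb2 is found in the hair follicle and sweat duct and is scarce in the resting epidermis between follicles. With the mutant RNA in Cy5 its ratios were -3.05 on array 2, -2.19 on array 4, -1.32 on array 6 and -0.12 on array 7. With the mutant RNA in Cy3 they were -1.22 on array 1, -1.49 on array 5 and -1.52 on array 8. The 7 values thus lay on the same side of 0 in both dye orientations, with array 7 close to 0. The mean was -1.56 ± 0.90 (SD, n = 7), and -1.31 ± 0.67 (SD, n = 6) without array 2. A linear fit of each gene, holding its average ratio and a term for the dye, gave -1.54 ± 0.31 (SE), which is 34.4% of the wild type level if the base is 2.

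Gjb5, a connexin of differentiating keratinocytes, had a narrower range. It read -2.47 on array 2, -0.96 on array 4, -1.06 on array 6 and -1.39 on array 7 with the mutant RNA in Cy5. The values with the mutant RNA in Cy3 were -1.72 on array 1, -0.92 on array 5 and -0.22 on array 8. Here array 8, and not array 7, was the one nearest to 0. The mean was -1.25 ± 0.71 (SD, n = 7), and -1.04 ± 0.51 (SD, n = 6) without array 2, and the fitted ratio was -1.21 ± 0.25 (SE), or 43.2% of the wild type level.

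Gjb2 and Gjb5 were picked by name with results of these arrays known, so that their ratios are a description and carry no p. The fit covered 3783 genes, each measured on 3 or more of the 4 arrays per orientation (limma, adjusted p below 0.05). It held 4 connexins, and these 2 were past the threshold, as were 3.46% of all genes tested, 2.8% lower and 0.661% higher. Since these 2 were picked with results known, their count beside that share and their passes in the fits below are no test. Of 1365 genes with values on 7 arrays, 6.52% were below 0 on all 7. Array 3 held no value of either gene, so the fit without it left their ratios unchanged. With that fit counted, and 1 array left out at a time, Gjb2 stayed past the threshold in 4 of 8 fits and Gjb5 in 3 of 8. Gjb2 lost it without array 1 (fitted ratio -1.59), array 4 (-1.45), array 5 (-1.52) or array 6 (-1.60). Gjb5 lost it without array 1 (-1.02), array 2 (-1.04), array 5 (-1.22), array 6 (-1.28) or array 7 (-1.22). Neither was past it on arrays 4 to 8 alone, a subset added once the low coverage of arrays 1 to 3 had been seen. There the fitted ratios were -1.36 for Gjb2 and -0.85 for Gjb5.

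**Figure D1:**
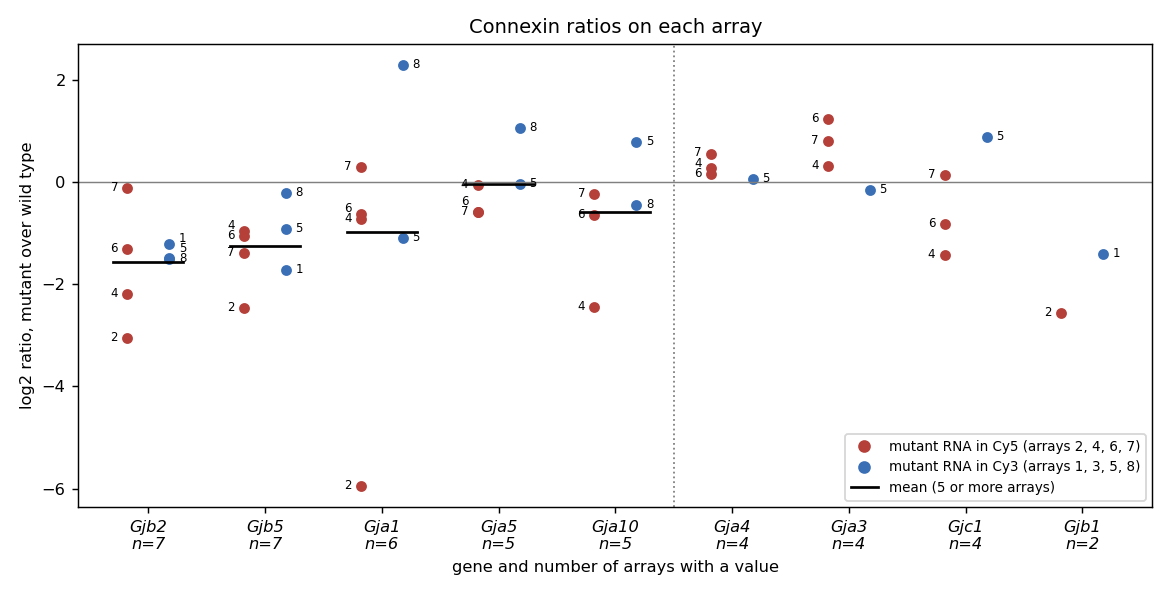
Log2 ratio of mutant over wild type (vertical axis) for each of 9 connexins (horizontal axis), 1 point per array with its number beside it, mutant RNA in Cy5 on the left of each gene and in Cy3 on the right, and a bar at the mean where at least 5 arrays had a value. All 7 points of Gjb2 and all 7 of Gjb5 lie below 0, while Gja1 spreads from -5.95 to 2.29.

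The arrays differ in spread, so each connexin was also placed among all probes with a value on the same array. Gjb2 lay between the 1.0 and the 4.8 percentile on 6 arrays and at the 38.8 percentile on array 7. Gjb5 lay between the 1.9 and the 7.1 percentile on 5 arrays, at 14.8 on array 4 and at 45.7 on array 8. On array 2, where Gjb2 had its lowest ratio of -3.05, its percentile was 4.2, and on array 5, with a ratio of -1.49, it was 1.0. On arrays 4, 5, 6 and 8 the rank of Gjb2 was lower than on array 2, and on arrays 1 and 7 it was higher.

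**Figure D2:**
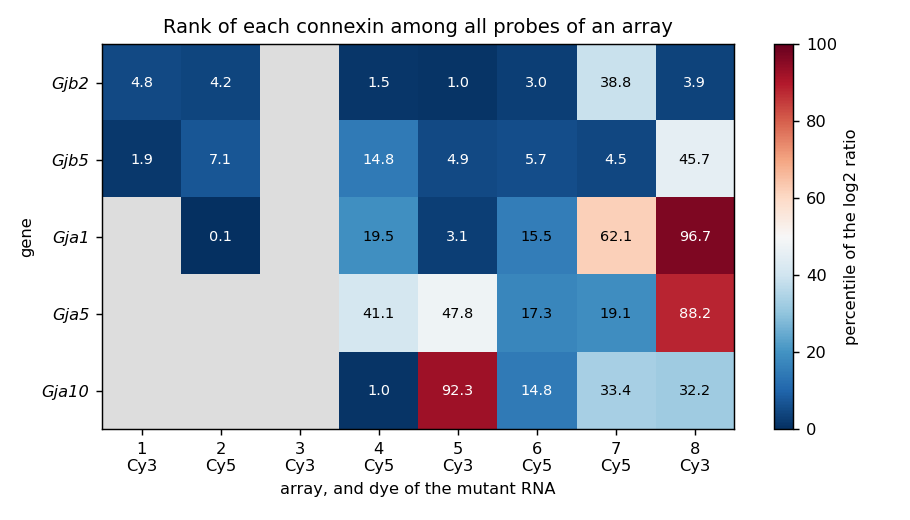
Percentile of each connexin's log2 ratio among all probes with a value on the same array (colour and printed number), for 5 connexins in rows and 8 arrays in columns, with the dye of the mutant RNA under each array and grey for no value. Gjb2 is under 5 on every array except array 7 and array 3 (no value), and Gjb5 is under 8 except on arrays 4, 8 and 3 (no value).

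The part of a ratio that follows the dye is a separate measure, but it may not be independent of the choice of genes. Both genes were picked with results known and lay below 0 in both orientations. For Gjb2 the mean was -1.67 ± 1.25 (SD, n = 4) for mutant RNA in Cy5 and -1.41 ± 0.16 (SD, n = 3) for mutant RNA in Cy3. The fitted dye part was -0.26, with a 95% interval from -1.60 to 1.08 (limma, adjusted p = 0.794), and without array 2 it was 0.20. For Gjb5 the mean was -1.47 ± 0.69 (SD, n = 4) for mutant RNA in Cy5 and -0.95 ± 0.75 (SD, n = 3) for mutant RNA in Cy3. Its dye part was -0.52, with an interval from -1.63 to 0.60 (limma, adjusted p = 0.501). By limma neither dye part was past the adjusted threshold, which 1.74% of all genes tested passed. At an unadjusted p below 0.05 these were 0 of 2, against 1167 of 3783 genes. Differences between the orientations within these intervals were not excluded.

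Gja1, the most widely expressed connexin of skin and present in keratinocytes and fibroblasts alike, had the widest range. It read -5.95 on array 2, -0.73 on array 4, -0.63 on array 6 and 0.28 on array 7 with the mutant RNA in Cy5. With the mutant RNA in Cy3 it read -1.09 on array 5 and 2.29 on array 8. Arrays of both orientations thus lay on both sides of 0. The mean was -0.97 ± 2.73 (SD, n = 6) and moved to 0.02 ± 1.36 (SD, n = 5) without array 2, so that its sign rested on that array. Gja1 missed the filter of the fit because the Cy3 orientation held 2 values. With at least 2 values in each orientation, over 5632 genes, its ratio was -0.58 with an interval from -2.39 to 1.23 (limma, adjusted p = 0.759). Changes of Gja1 within that interval were not detectable on these arrays.

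Gja5 (Cx40), a connexin of arterial endothelium, read -0.06, -0.59 and -0.60 on arrays 4, 6 and 7 with the mutant RNA in Cy5, and -0.04 and 1.06 on arrays 5 and 8 with it in Cy3. Its mean of -0.04 ± 0.67 (SD, n = 5) lay within its spread of 0. Under the looser filter its ratio was 0.05, with an interval from -0.56 to 0.66 (limma, adjusted p = 0.950). Leaving out array 6 or array 7 turned the mean to 0.09, and leaving out array 8 moved it to -0.32.

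Gja10 (Cx57) is known from the retina, and not as a connexin of skin. It read -2.44, -0.65 and -0.23 on arrays 4, 6 and 7 and 0.79 and -0.46 on arrays 5 and 8, with a mean of -0.60 ± 1.17 (SD, n = 5). Under the looser filter it stood at -0.47, with an interval from -1.33 to 0.39 (limma, adjusted p = 0.574), and its mean ran from -0.95 without array 5 to -0.14 without array 4.

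Ordered by mean ratio from the lowest, the 5 connexins were Gjb2, Gjb5, Gja1, Gja10 and Gja5. Each pair of neighbours in this order differed by less than the SD of the difference over the arrays they shared, as Gjb2 and Gjb5 did (Gjb2 minus Gjb5, -0.31 ± 0.92, 7 arrays). The means rest on different arrays, and the place of Gja1 turned with them. On the 5 arrays shared with Gja10, Gja1 was the higher by 0.62 ± 1.75 (SD) and lower on 1 of 5, and without array 2 its mean of 0.02 was above that of Gja5. Comparisons with Gja5, at the other end of the order, were chosen after the values were seen. Gjb2 minus Gja5 was -1.28 ± 1.21 (SD, 5 arrays), with Gjb2 lower on 4 of the 5. Gjb5 minus Gja5 was -0.86 ± 0.29 (SD, 5 arrays), with Gjb5 lower on all 5.

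Between the 5 arrays that Gja5 and Gja10 have and the 4 of the next members lies the limit for inclusion. Gja4 (Cx37), of vascular endothelium, read 0.27, 0.15 and 0.54 on arrays 4, 6 and 7 and 0.05 on array 5. It was above 0 on all 4 arrays, as were 7.37% of genes with values on 4 arrays. Gja3 (Cx46), a lens connexin, ranged from -0.15 to 1.24, and Gjc1 (Cx45), found in smooth muscle, from -1.43 to 0.88. Gjb1, the connexin of liver and Schwann cells, had values on 2 arrays, both below 0, at -1.405 on array 1 and -2.57 on array 2. Gja6, Gjb6 and Gjc3 had no row by accession and were not analysed here.

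Connexin genes also lie side by side in the mouse genome, and the ratios of such neighbours can be compared. On chromosome 14 Gja3, Gjb2 and Gjb6 are neighbours in that order, and Gja3 had 3 of 4 values above 0. Beyond Gjb6 follow Cryl1, a crystallin-related enzyme gene, at 0.12 and Ift88, a gene of ciliary transport, at 0.07, neither past the test (limma, adjusted p = 0.821 and 0.887). Each of Cryl1 and Ift88 was below 0 on 4 of 8 arrays, against 7 of 7 for Gjb2.

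The pattern over arrays was compared between genes as a description, over the 7 arrays that measured Gjb2 and Gjb5 and 2185 genes with values on all of them. The arrays share animals, dyes and a common spread, so the correlations have no p. The genes most like Gjb2 were Srsf10 (r = 0.965), Kcna3 (0.958), Mfsd10 (0.948), Cpsf3 (0.909) and Cptp (0.904). Without array 2 these ran from 0.798 to 0.954. The genes most like Gjb5 were Vamp5 (0.964), Ppic (0.959), Map2 (0.958), Tg (0.955) and Ifnar1 (0.951), and between 0.884 and 0.916 without array 2. Gjb2 and Gjb5, although both below 0 throughout, were not close to each other in pattern. Their correlation was 0.359 with array 2 and -0.432 without it, and Gjb5 was only the gene ranked 366 in likeness to Gjb2.

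Other genes of cell junctions were read in the same fit, in which the median ratio of all genes was 0.05. Of 13 tested genes of connexin partners, kinases and assembly, 1 was lower, none was higher and the median was -0.07. Of all genes tested, 2.8% were lower and 0.661% higher. The list was chosen with earlier results of these data known, so its count and the p-values and passes below are no test. The lower gene was Prkce, an epsilon form of protein kinase C, a kinase family that phosphorylates Gja1. Prkce read -1.33, -1.74, -0.73 and -2.21 on arrays 2, 4, 6 and 7 with the mutant RNA in Cy5 and -1.82, -1.08, -1.33 and -1.10 on arrays 1, 3, 5 and 8 with it in Cy3. It was below 0 on 8 of 8 arrays, as were 2.42% of genes with values on 8 arrays, with no difference in side between the orientations. Its fitted ratio was -1.42 ± 0.20 (SE, limma, adjusted p = 0.00580), and it stayed past the threshold in 8 of 8 fits without 1 array, at -1.54 to -1.30, but not on arrays 4 to 8 alone (adjusted p = 0.0736) or when read as Cy5 over Cy3 (ratio -0.085, adjusted p = 0.793). By limma the kinase gene Akt1, at -0.52 with an adjusted p of 0.554, did not pass. Neither did the tubulin gene Tuba1a, at 0.50 with 0.224, or the scaffold gene Tjp1, at 0.38 with 0.478.

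None of the 4 tight junction genes, 5 adherens junction genes and 5 desmosome genes tested was past the threshold in either direction. Of all genes tested, 3.46% were past it. The largest ratios were those of the claudin Cldn3 at -0.45, the actin linker vinculin (Vcl) at 0.57 and the desmosomal cadherin Dsc1 at 0.38. The medians of these lists were 0.10, 0.11 and 0.09. Gjd2, a neuronal connexin outside the groups described here, stood at 0.20 (limma, adjusted p = 0.660). With so few members tested, the lists give counts and no test of the junctions as a class.

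**Figure D3:**
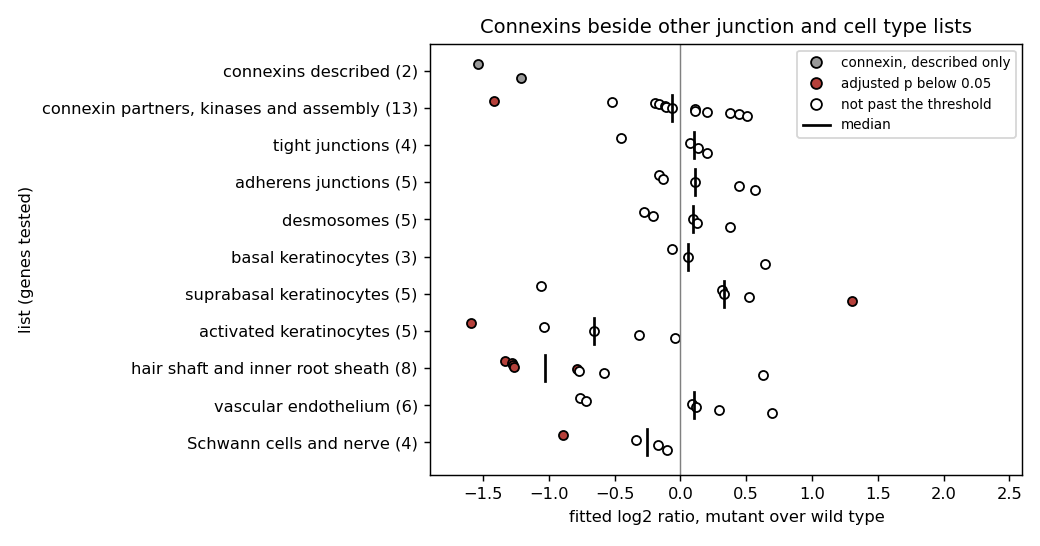
Fitted log2 ratio of mutant over wild type (horizontal axis) for each tested gene of 11 lists (rows, number tested in brackets), with filled points for an adjusted p below 0.05, open points for the rest, grey points for Gjb2 and Gjb5 and a bar at each other list's median. Gjb2 and Gjb5 lie at -1.54 and -1.21, and the 4 lowest hair genes between -1.33 and -1.26, while the tight junction, adherens junction and desmosome genes all lie between -0.45 and 0.57.

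Whole skin mixes several kinds of cell that carry connexins. Of 8 tested markers of the hair shaft and inner root sheath 5 were lower and none higher, with a median of -1.03, where 2.8% of all genes tested were lower. The list was chosen with earlier results of these data known, so the count beside that share is no test. The 5 lower genes were Krtap15 (-1.33), Krtap14 (-1.28), Krt31 (-1.27), Krtap9-1 (-1.26) and Krt71 (-0.79). The hair keratin gene Krt35 stood at 0.63, above 0 on 4 of 8 arrays, and did not pass. Gjb2 is also known to be made in activated keratinocytes. Of 5 genes of these cells all 5 had fitted ratios below 0, as had 1693 of all 3783 genes tested, and the median was -0.66. Defb3 (-0.04) was below 0 on 4 of 8 arrays and Krt6b (-0.32) on 5 of 8. Sprr1b (-1.04) was below 0 on 7 of 7 and Sprr1a (-0.66) on 7 of 8, neither past the threshold. The 1 gene called lower was the fatty acid binding protein gene Fabp5 at -1.59 ± 0.33 (SE, limma, adjusted p = 0.0260). This list too was chosen with earlier results of these data known, so that call and its p are no test. The part of these cells in the ratios of Gjb2 and Gjb5 was not tested.

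The lists below were chosen with earlier results of these data known, so their counts, p-values and passes are no test. Of all genes tested, 2.8% were lower and 0.661% higher. Markers of the differentiating layers, which hold Gjb5, did not share a direction. Of 5 suprabasal keratinocyte genes 1 was higher, the keratin gene Krt1 at 1.30 ± 0.27 (SE, limma, adjusted p = 0.0241), none was lower and the median was 0.33, while the envelope gene Ivl stood at -1.06 and did not pass (adjusted p = 0.0733). Of 3 basal keratinocyte genes none passed, with a median of 0.06. For the connexins of vessels, 6 endothelial genes had a median of 0.10 and 2 genes of smooth muscle one of -0.29, with none past the threshold. The members did not share a direction. Of the endothelial genes 4 were above 0, up to Cdh5 (0.70), and 2 below, Emcn (-0.76) and Pecam1 (-0.72, below 0 on 7 of 7 arrays). In smooth muscle Rgs5 stood at -0.93 and Tagln at 0.36. Of 4 Schwann cell genes 1 was lower, Mbp at -0.90, with a median of -0.26. In the remaining lists, dermal fibroblasts had Vim (1.17) and Fbn1 (0.75) higher of 7 genes and adipocytes had Cfd (1.96) higher of 5, with medians of 0.75 and 0.33. Within the adipocyte list Car3 stood at -0.86 (7 of 7 arrays below 0), not past the threshold. Immune cells had C1qb (-1.37) lower of 8, although 6 of the 8 were above 0, C1qa (0.39) among them, and the median was 0.40. The 4 melanocyte genes and 1 skeletal muscle gene had none past the threshold. Leaving out 1 array at a time, Vim and Cfd stayed past the threshold in 8 of 8 fits, Krtap9-1 in 7, Krt31 in 6, Krt1 and C1qb in 5, Fabp5 in 3, Krtap15 in 2, Krtap14 and Mbp in 1, and Krt71 and Fbn1 in 0. These counts include fits without an array on which the gene had no value, such as array 3 for Krt1 and Fabp5, where the ratio was unchanged.

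The ratios of Gjb2 and Gjb5 depend on how the table is read. Read as Cy5 over Cy3 on every array, in place of mutant over wild type, the fitted ratios were -0.13 for Gjb2 and -0.26 for Gjb5, neither past the threshold. Read as Cy3 over Cy5 their signs would turn. Spots of Gapdh, of which the array had 232, bear on this reading, since they carry the same gene. Between arrays of opposite orientation their ratios correlated negatively in each of 16 pairs (median r = -0.45). Between arrays of like orientation they correlated positively in each of 12 pairs (median r = 0.55). A fixed dye difference between spots in a table of 1 dye over the other would have kept its sign in both kinds of pair. Ratios are therefore given with the table read as already turned to 1 direction. Over all probes the median r was -0.02 in pairs of opposite orientation, the lowest being -0.515, and 0.49 in pairs of like orientation. By the median, ratios over all probes were thus not shared between arrays with the dyes swapped, which limits every ratio here. The cause was not tested.

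**Figure D4:**
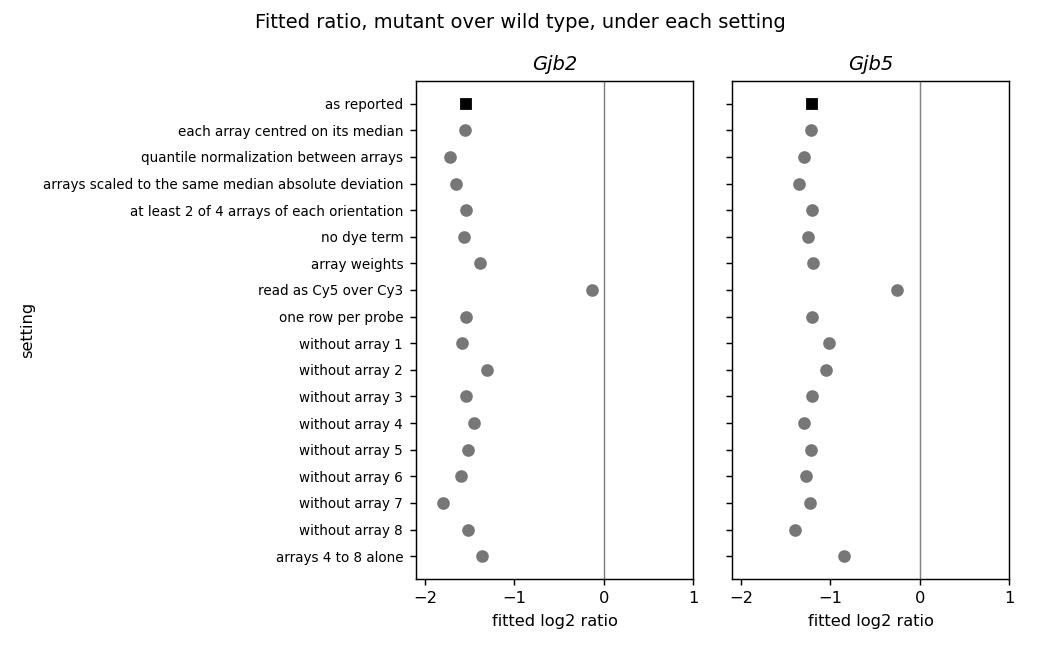
Fitted log2 ratio of mutant over wild type (horizontal axes) for Gjb2 and Gjb5, under the reported setting (square) and each alternative (circles, rows). Gjb2 stays between -1.80 and -1.31 and Gjb5 between -1.39 and -0.85 except when the table is read as Cy5 over Cy3.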

How the data were processed

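Skin RNA of mutant and wild type pups was hybridised together to 8 two-colour arrays, labelled and hybridised by standard protocols per the labels. The deposited values are the authors' log ratios, read here as log2. For their base, direction, image analysis, normalization and missing values, the steps taken were not given in the sources used here, spot intensities were not used here, and the number of arrays limits precision. The 864 blank, 275 buffer and 96 Alien control spots were left out, and 232 Gapdh spots were averaged. Of 21997 probe rows, 6749 were named by RefSeq accession, 83 by synonym and 15165 not at all (table of GRCm38.p6 genes, used for names and gene order).

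Genes with values on at least 3 of 4 arrays of each dye orientation were fitted with a mean and a dye term in limma 3.58.1 (R 4.3.3, empirical Bayes, Benjamini-Hochberg over 3783 genes, threshold 0.05, two-sided). Without 1 array, an orientation of 3 arrays needed 2 values. The fit was tested on simulated data. Members, lists and motifs were chosen with earlier results of these data known. Results of 3 connexins with a row, and of some other genes, are not reported here. These genes stayed in every fit and in the counts of all genes and of connexins called. In other lists the called members and some others were named, not always those with the largest ratios, and Tjp1 was chosen after its values were seen. Alternatives covered array scaling, filters on missing values, the dye term, array weights, the reading of the ratio, probe-level fits and each array left out.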

Additional observations from a re-analysis of the deposited data

How the results depend on the processing

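The fitted ratios of Gjb2 and Gjb5 kept their sign under every alternative run that held them. Both were past the threshold under each scaling, the looser filter, no dye term, array weights and probe-level fits. These passes describe genes picked with results known and are no test. Connexins past it numbered 2 of 4 as reported and 0 of 1 with values on all 8 arrays, a setting that held neither Gjb2 nor Gjb5. They numbered 0 when read as Cy5 over Cy3, 0 to 2 without 1 array, and 0 on arrays 4 to 8 alone. On those arrays limma gave 2 an unadjusted p below 0.05. The cause was not tested.

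All genes called numbered 131 (25 higher, 106 lower), 350 with quantile normalization (128 and 222), 206 with scaled arrays, 81 with values on all 8 arrays, 64 without a dye term, 429 with array weights (143 and 286), 66 when read as Cy5 over Cy3 (62 and 4), 504 as probes, and 28 to 128 without 1 array. On arrays 4 to 8 alone 0 genes were called, and 742 had an unadjusted p below 0.05. Genes with a dye part past the threshold numbered 66, then 26 with centred arrays, 657 with quantile normalization, 447 with scaled arrays, 0 with the looser filter (1328 at an unadjusted p below 0.05), 345 with values on all 8 arrays, 952 with array weights, 640 as probes, 0 to 765 without 1 array, and 0 on arrays 4 to 8 alone (480 unadjusted).

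The dye part of Gjb2 turned with quantile normalization (0.46), scaled arrays (0.31), without array 2 (0.20) and on arrays 4 to 8 alone (0.29), and that of Gjb5 with array weights (0.030). Without 1 array the dye part of Gjb2 ran from -0.78 to 0.20. No dye part of the connexins described was past the threshold under the scalings, filters, array weights, probe-level fits and subsets of arrays run. Read as Cy5 over Cy3 the ratio and the dye part change places, so that reading gives no separate dye part. Read as Cy5 over Cy3, Krt1 (-0.40), Krtap15 (0.50), Krtap9-1 (0.35) and Vim (-0.71) turned.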
